A study of Mus musculus with 54 samples.

Results

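Wildtype H2K mouse myogenic progenitors and emerin-null progenitors carrying the emerin mutant Q133H were compared after 48 h of differentiation (day 2). H2K cells carry a temperature-sensitive SV40 large T antigen and proliferate while it is active, and they differentiate into myotubes when it is switched off and serum is reduced. The Q133H line was made from EMD-/y progenitors, in which the X-linked emerin gene is deleted, by lentiviral transduction with Q133H emerin and selection in puromycin, and it was not stated to be a single clone. The wildtype line had no transduction, no puromycin and a lower seeding density. The mutation, the loss of endogenous emerin, the amount of emerin protein, the vector, the drug and the density therefore cannot be told apart between these groups. The comparison used 6 of the 54 samples of the series, 3 labelled replicates of each group at day 2, and the deposited table for it held 17525 genes of the 19192 found over the 11 tables read. All 17525 were members, since the table itself defines the comparison.

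The table held 1 normalised value per gene and group, and no value per replicate. How that value was formed from a group's 3 replicates was not given in the sources used here. No spread between replicates, SD or test could therefore be computed, and every difference below is a description of these libraries. Replicates were described as technical repeats of 2 biological replicates, without stating which samples these were. A gene was compared where its higher group value was at least 10, which left 13593 genes, and 3932 were below that level. The log2 ratio was taken as Q133H over wildtype after adding 1 to both values, and a gene was called higher or lower at 2-fold. Paired values below give wildtype first and Q133H second. Read totals were not in the table. The group values summed to 20442720 in wildtype and 17171690 in Q133H.

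Emerin is a LEM-domain protein of the inner nuclear membrane that binds lamins, the chromatin protein BAF and the HDAC3 corepressor complex, and its mutations cause Emery-Dreifuss muscular dystrophy. Differentiating progenitors leave the cell cycle, switch on myogenin, then make contractile proteins and fuse into myotubes. In proliferating progenitors the Id proteins hold the bHLH muscle factors inactive, and E2F factors drive the genes of DNA replication and mitosis.

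The targeted gene bore out the null background of the Q133H line but not its transgene. Emd (chrX:74254674-74261563 in mm10) had a value of 1124 in wildtype and 0.677 in Q133H. The value was also between 1.12 and 2.35 in EMD-/y, S54F, Δ95–99 and the line with wildtype emerin put back (+EMD), so the transduced emerin was not seen in this gene's value in any line, and the reason was not tested. The myogenic identity of both groups was checked against 10 markers, all of which were measured. Their summed value was 749273 in wildtype and 147323 in Q133H, and the contractile genes Myh3 and Acta1 made up most of the wildtype sum. Myod1, the determination factor, had 21857 in wildtype and 14359.8 in Q133H, so both groups expressed it within 2-fold. Myf5, the other early factor, was higher in Q133H (141 against 640.3) and Pax7, the satellite-cell factor, was lower (53.5 against 8.30). The remaining markers Myog (51649 against 21442), Des (63503 against 21434), Cdh15 (12757 against 5741), Tnnt3 (53695 against 8232), Ckm (8943 against 1036), Acta1 (267851 against 53281) and Myh3 (268822 against 21149) were all lower in Q133H.

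Levels of markers of other cells differed by list and member. Under 10 in both groups were 4 of 13 fibroblast and tendon, 2 of 6 adipocyte and 5 of 9 bone and cartilage markers in the table. Of 13 endothelial, blood and glial markers 10 were in the table and 7 of these were under 10 in both groups, with a summed value of 59.9 in wildtype and 163 in Q133H. Cd68 (24.6 against 106), Tek (3.88 against 15.4) and Kdr (8.12 against 19.5) passed the minimum. Pecam1, Cdh5, Csf1r, Lyz2 and S100b were among those that did not, and Ptprc, Adgre1 and Sox10 were not listed. The 13 listed fibroblast and tendon markers summed to 5003 in wildtype and 4940 in Q133H, with Mkx, a tendon factor (17.3 against 285), Ly6a (303 against 849.5), Cd34 (3.76 against 71.1) and Pdgfra (31.5 against 66.5) higher, Scx (1439.6 against 490.1), Fap (41.7 against 9.35) and Dpt (13.1 against 1.96) lower and Prrx1 (2017 against 2246) and Pdgfrb (1130.1 against 916) within 2-fold. The adipocyte markers summed to 3300.0 and 2139, with Plin1 and Pparg under 10 in both groups, Cebpa (137 against 555) and Fabp4 (0.443 against 10.3) higher, Adipor2 lower (2507 against 1141) and Lpl (652 against 424) within 2-fold. The bone and cartilage markers summed to 937 and 1681, with Sp7, Alpl and Ibsp under 10 in both groups, Sox9 (291 against 814) and Runx2 (340.0 against 712) higher and Matn3 lower (199.6 against 6.51). The part of any of these cells in the results below was not tested. In whole cultures, fewer cells of a type and less RNA per cell cannot be told apart.

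Of the 13593 genes compared, 2449 (18.0%) were at least 2-fold higher in Q133H than in wildtype, 2103 (15.5%) were at least 2-fold lower and 9041 (66.5%) lay within 2-fold. At 4-fold the counts were 968 higher and 1032 lower. The median log2 ratio was near 0 (-0.0035) and the 5th and 95th percentiles were -2.71 and 2.41. Scaling both groups to the same sum moved every ratio by 0.25 on the log2 scale and turned the split into 3098 higher and 1709 lower. The 100 highest genes held 24.4% of the wildtype sum and 20.1% of the Q133H sum. Every list below was read against these background shares.

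**Figure D1:**
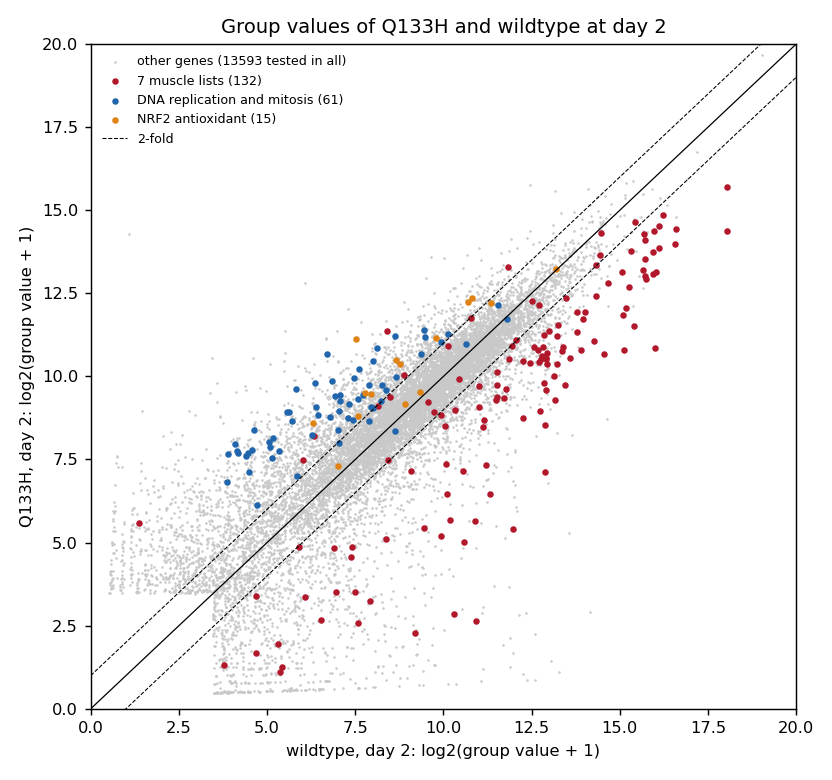
Group value of each of the 13593 genes compared in Q133H (vertical) against wildtype (horizontal) at day 2, both as log2(value + 1), 1 point per gene, with muscle, replication and mitosis, and NRF2 genes coloured and dashed lines at 2-fold. Muscle genes lay mostly below the diagonal of equal values (111 of 132 at least 2-fold lower) and replication and mitosis genes mostly above it.

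Genes of the contractile apparatus were mostly lower. Of 132 genes compared in 7 lists (myosins, thin filament, Z-disc and M-band, excitation-contraction coupling, neuromuscular synapse, dystrophin-glycoprotein complex and muscle energy metabolism), 111 were at least 2-fold lower in Q133H, 6 were higher and 15 lay within 2-fold, with a median log2 ratio of -2.28. Background shares were 15.5% lower and 18.0% higher.

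Of 14 sarcomeric myosin chains compared, 13 were lower and none was higher. The embryonic heavy chain Myh3 had 268822 in wildtype and 21149 in Q133H, a 12.7-fold difference. The perinatal chain Myh8 had 65978 in wildtype and 1859.9 in Q133H. Of the adult fast chains Myh2 (3992 against 41.5) and Myh4 (703 against 41.99) were lower, while Myh1 alone lay within 2-fold (22249 against 12756). These heavy chains are close in sequence, and how reads were shared between them was not stated. Among light chains Myl4 (62549 against 13568) and Mylpf (70962 against 14788) were lower by similar ratios, and Myl2, the slow and cardiac chain, was 4.92 in Q133H against 191 in wildtype. Of 16 thin-filament genes 14 were lower. All 7 troponins were lower by log2 ratios between -3.21 and -2.43, including Tnnc2 (34539 against 3719) and Tnnt1 (12262 against 1495). The sarcomeric actins Acta1 (log2 ratio -2.33) and Actc1 (96995 against 16093, log2 ratio -2.59) were lower by like amounts. The proteins that set filament length were lower by more, namely the pointed-end cap Tmod1 (7567 against 139.7) and the actin nucleator Lmod2 (2339 against 161). Tpm3, a tropomyosin that nonmuscle cells also use, was the only thin-filament gene higher in Q133H (3617 against 10075).

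Of 28 Z-disc, M-band and titin genes 26 were lower and none was higher. The giant spring Ttn had 70558 in wildtype and 23361 in Q133H. Small Z-disc proteins showed the largest ratios, with Tcap, the titin cap, at 1521 against 31.3, Myoz2 at 1897 against 49.6, Myot at 240.2 against 8.42 and Csrp3 at 1172 against 50.3. Desmin (log2 ratio -1.57) and filamin C, Flnc (53048 against 19746, log2 ratio -1.43), which progenitors already make, were lower by less.

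Calcium handling showed the same direction. Of 25 excitation-contraction coupling genes 23 were lower, all 11 calcium and release channels among them, and 1 was higher. Casq1, the calcium buffer of the sarcoplasmic reticulum, had 1926 in wildtype and 5.22 in Q133H. The log2 ratio of Casq1 was -8.28, or -6.99 with a pseudocount of 10, since its Q133H value lay under 10. The calcium pumps were lower by less, with Atp2a1, the fast-muscle pump, at 42960.0 against 2935 and Atp2a2 at 34096 against 9036, and sarcalumenin, Srl, was at 66289.8 against 9098. The muscle sodium channel Scn4a (1250.2 against 6.27) and the inward rectifier Kcnj12 (587 against 3.86) were under 10 in Q133H, and another inward rectifier, Kcnj2, was the 1 higher gene (1.58 against 47.2).

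The synaptic and membrane complexes were lower by smaller ratios. Of 11 neuromuscular synapse genes 8 were lower. The 4 acetylcholine receptor subunits above the minimum, Chrna1 (40901 against 13854), Chrnb1 (4922 against 1421), Chrnd (6084 against 1902) and the fetal subunit Chrng (10649.6 against 1870.2), were all among them. The adult subunit Chrne was below the minimum in both groups. The clustering genes Lrp4 (6701 against 1369.8), Rapsn (3702 against 1477) and Dok7 (2073 against 843) were lower, while the receptor kinase Musk (4263 against 2197) and its ligand agrin, Agrn (1126 against 1934), lay within 2-fold. Of 18 dystrophin-glycoprotein genes 10 were lower and 3 higher. Dag1, the dystroglycan core (25936 against 7237), Sgca (3505 against 791) and Sgcd (331 against 33.6) were lower, Dmd (63.96 against 178), Dtnb (80.1 against 294) and Sntb2 (471 against 1054) were higher, and the dystrophin relative Utrn (5839 against 4971) lay within 2-fold.

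Of 20 muscle energy genes 17 were lower and 1 was higher. Creatine kinase Ckm was 8.63-fold lower, and the insulin-responsive glucose carrier Slc2a4 (979 against 35.4) and the muscle cytochrome oxidase subunit Cox6a2 (2552 against 87.01) were farther apart. Lactate dehydrogenase differed by isoform. Ldhb was higher (336 against 2623) and Ldha lay within 2-fold (22620.4 against 20351).

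Promoters of Casq1, Ckm and the muscle caveolin gene Cav3 are shown because E-boxes, the CANNTG sites that bHLH muscle factors bind, lie in them. The windows run from 250 bases before to 50 after the RefSeq start (GRCm38.p6), written 5′ to 3′ on the gene's strand, with E-boxes in capitals.
Casq1 (chr1:172219846-172220145, minus strand): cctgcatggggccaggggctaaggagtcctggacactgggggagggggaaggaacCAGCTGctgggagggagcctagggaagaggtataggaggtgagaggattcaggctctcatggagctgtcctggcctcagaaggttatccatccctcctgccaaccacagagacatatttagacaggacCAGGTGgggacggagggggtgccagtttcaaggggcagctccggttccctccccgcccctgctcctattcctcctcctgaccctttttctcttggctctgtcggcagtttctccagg
Cav3 (chr6:112459255-112459554, plus strand): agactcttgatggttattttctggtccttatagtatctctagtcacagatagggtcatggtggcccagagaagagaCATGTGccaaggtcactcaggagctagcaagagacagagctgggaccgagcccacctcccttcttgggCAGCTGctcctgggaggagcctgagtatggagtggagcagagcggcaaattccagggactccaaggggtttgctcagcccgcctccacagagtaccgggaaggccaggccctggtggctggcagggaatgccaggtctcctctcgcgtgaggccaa
Ckm (chr7:19410844-19411143, plus strand): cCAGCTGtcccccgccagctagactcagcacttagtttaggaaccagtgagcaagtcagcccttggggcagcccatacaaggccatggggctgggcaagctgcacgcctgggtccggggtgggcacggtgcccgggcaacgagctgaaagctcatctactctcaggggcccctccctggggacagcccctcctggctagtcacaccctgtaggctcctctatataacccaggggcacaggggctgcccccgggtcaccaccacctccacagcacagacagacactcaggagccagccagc
The search used CANNTG and its subset CAGCTG on both strands of the same 300-base windows. CAGCTG was in 38.7% of the 93 muscle-list promoters matched (of 132 genes compared), in 15.4% of the 10228 promoters matched among all genes compared and in 16.1% of all 27025 promoters. CANNTG was in 82.8%, 62.8% and 72.1% of these. The windows of Myh2, Scn4a and Tmod1, whose log2 ratios were between -7.43 and -5.75, held no CANNTG. A match describes the letters in the window and not binding.

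Regulators of the programme were mixed. Of 19 compared, 7 were higher and 5 lower in Q133H. Myogenin, Myog, had 51649 in wildtype and 21442 in Q133H, and the Mef2 factors that act with it were lower for Mef2c (11792 against 3483) and Mef2d (12758 against 5611) and within 2-fold for Mef2a (19671 against 10740.0). All 4 Id genes were higher, by log2 ratios between 1.96 and 3.60, with Id1 at 203 against 1089 and Id3 at 252 against 2494. The progenitor factor Pax3 was higher (113 against 472) and Myf6, the late bHLH factor, was lower (57.2 against 14.1). The 3 E protein partners lay within 2-fold. Pax7, the satellite-cell factor, was lower (53.5 against 8.30), so Pax3 and Pax7 went in opposite directions. Myf5, Pax3 and the Id genes therefore stood above wildtype in the same libraries in which Myog, Mef2c, Mef2d, Myf6 and Pax7 stood below.

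Of 23 fusion and adhesion genes 10 were lower and 4 higher. Myomaker, Mymk, the membrane protein that drives fusion, had 51884 in wildtype and 6504 in Q133H, and both fusogens were lower. Ncam1 (47586 against 8253), Jam2 (8254 against 520.5) and the caveolae protein Cav3 (6362 against 296) were lower. Kirrel, an immunoglobulin-type adhesion protein, was higher (867 against 4282), as was Dock1, which activates Rac (503 against 1445), its partner Elmo1 (12.3 against 73.1) and Adgrb1 (3.36 against 25.3). Itgb1 lay within 2-fold (25101 against 15532).

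The cell-cycle genes stood on the other side of wildtype. Of 88 genes in 3 lists, 68 were at least 2-fold higher in Q133H, 3 were lower and 17 lay within 2-fold, with a median log2 ratio of 1.94. Of 30 mitotic genes 29 were higher and none was lower. Cenpe, a kinetochore motor, had 104 in wildtype and 1648 in Q133H, the checkpoint kinase Bub1b had 55.2 against 787 and separase, Espl1, had 13.7 against 204. Bub3 alone of this list lay within 2-fold (1603 against 2009). Of 31 replication genes 26 were higher and none lower, with all 15 licensing genes higher, among them Mcm2 (1113 against 2468), Mcm10 (20.1 against 192) and Orc1 (31.9 against 259). Among synthesis genes Top2a (275 against 1853) and Tk1 (21.3 against 139) were higher, whereas the ribonucleotide reductase subunits Rrm1 (3570.4 against 3396) and Rrm2 (3010.1 against 4568) lay within 2-fold.

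Of 27 cyclins, CDKs and E2F genes 13 were higher and 3 lower. The mitotic cyclins Ccnb1 (53.7 against 953) and Ccna2 (71.99 against 1125) and the anaphase activator Cdc20 (89.03 against 1060.4) were higher. The D cyclins differed among themselves. Ccnd1, the cyclin of proliferating progenitors, had 729.9 in wildtype and 7947 in Q133H, Ccnd2 was also higher (2129.6 against 6584), and Ccnd3, the D cyclin of differentiating muscle, was lower (14549 against 4339). Cdk4 was higher (3655 against 8286), and Cdk2 (2664 against 885) and E2f2 (2110.0 against 299) were lower. Of 10 pocket proteins and CDK inhibitors, 2 were lower and 1 higher. Rbl1 (p107) was higher (238 against 709) and Cdkn1c (p57, 4663 against 1607) and Cdkn2d (354 against 152) were lower. Rb1 (10234 against 5842), Cdkn1a (p21, 72333 against 41893), Cdkn1b (1400.0 against 932), Cdkn2a (2039 against 2633), Cdkn2b (1237 against 1209.5), Cdkn2c (527 against 725) and Rbl2 (717 against 911) lay within 2-fold.

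The promoters of 3 genes of division are shown because the CCAAT box (ATTGG on the other strand) and the cell-cycle element TTTGAA both lie in them, in capitals, in windows of the same kind.
Bub1b (chr2:118597961-118598260, plus strand): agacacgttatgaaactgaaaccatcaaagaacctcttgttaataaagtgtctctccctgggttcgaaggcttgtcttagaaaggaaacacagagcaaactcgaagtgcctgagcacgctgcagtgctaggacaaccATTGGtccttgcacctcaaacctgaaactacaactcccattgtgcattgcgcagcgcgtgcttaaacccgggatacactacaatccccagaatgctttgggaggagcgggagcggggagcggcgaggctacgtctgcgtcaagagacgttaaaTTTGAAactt
Espl1 (chr15:102296043-102296342, plus strand): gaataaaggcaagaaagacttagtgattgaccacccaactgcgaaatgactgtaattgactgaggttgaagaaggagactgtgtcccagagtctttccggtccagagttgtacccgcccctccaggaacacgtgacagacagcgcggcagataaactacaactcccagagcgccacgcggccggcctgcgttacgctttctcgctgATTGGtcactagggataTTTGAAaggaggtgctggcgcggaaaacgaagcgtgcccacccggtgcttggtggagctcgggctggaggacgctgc
Cdc20 (chr4:118437294-118437593, minus strand): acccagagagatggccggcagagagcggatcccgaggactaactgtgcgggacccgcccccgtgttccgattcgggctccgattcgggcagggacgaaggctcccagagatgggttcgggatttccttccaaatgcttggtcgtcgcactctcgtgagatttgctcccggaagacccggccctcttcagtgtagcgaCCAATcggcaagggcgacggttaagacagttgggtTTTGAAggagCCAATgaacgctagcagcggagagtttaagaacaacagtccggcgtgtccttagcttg
With both strands searched, TTTGAA was in 73.1% of the 26 mitosis promoters matched (of 30 genes), in 11.7% of those of all genes compared and in 18.1% of all promoters. CCAAT was in 65.4%, 39.0% and 37.9%, and both were in 57.7%, 4.93% and 7.12%. Among the 25 replication promoters matched (of 31) TTTGAA was in 16.0% and CCAAT in 68.0%. The windows of Ccnb1 and Gtse1 held CCAAT and no TTTGAA, and that of Kif2c held TTTGAA and no CCAAT.

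Repair and p53 genes were also more often higher than the background. Of 20 homologous recombination genes 12 were higher and none lower, including the nuclease Exo1 (18.9 against 122) and Rad54b (28.8 against 130.4). The kinase Atm was higher (671 against 1494) and Rad51d lay within 2-fold (390.0 against 506). Of 21 p53 pathway genes 9 were higher and 2 lower (12 and 0 at the same sum). Mdm2, the ligase that limits p53, had 5916 in wildtype and 16197 in Q133H, Trp53inp1 (3188 against 13468), Zmat3 (1582 against 5489.9), Sesn2 (842 against 2369.8) and Gtse1 (514 against 4206) were higher, and Perp (10.9 against 891) was 75.1-fold higher. Pmaip1 (6928 against 3225) and Aen (2879 against 1375) were lower and Ccng1 lay within 2-fold (24333 against 43783).

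The nuclear lamina and its partners differed little. Of 24 genes 2 were higher and 2 lower, Emd among the latter, and the median log2 ratio of -0.17 changed sign to 0.08 when both groups were scaled to the same sum. Lmna (20396 against 16927) and the LEM protein Tmpo (5409 against 3583) lay within 2-fold. Lmnb2 was lower (2726 against 642) and the nesprin Syne2 was higher (60.6 against 279), as was the LEM protein Ankle1 (1.24 against 13.1). None of the 6 genes of the HDAC3 complex passed 2-fold.

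Matrix genes were split by member. Of 26 collagens 4 were higher and 10 lower. Among the fibrillar chains Col1a1 was lower (4962 against 676) while its partner chain Col1a2 (16734 against 16793) and Col5a2 (12535 against 12629) were almost equal. Col6a3 (523 against 38.00) and Col5a3 (1120.2 against 161) were lower, and Col16a1 (109 against 654), Col11a1 (69.1 against 372), Col27a1 (19.3 against 102) and Col2a1 (1.64 against 24.1) were higher. Of 27 laminins, nidogens and glycoproteins 10 were higher and 9 lower. Laminin β chains went in opposite directions, with Lamb1 higher (2074 against 8252) and Lamb2, the chain of the synaptic basal lamina, lower (4851 against 1313). Spp1, the secreted protein osteopontin, had 5600.4 in wildtype and 55912 in Q133H, Tnc (804 against 3464), Fbln1 (204 against 958) and fibronectin, Fn1 (18094 against 36326), were higher, and periostin, Postn, was lower (668 against 51.1). Sparc was almost equal (26814 against 30037).

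Among 16 proteoglycans 3 were higher and 5 lower, with a median of -0.02, and at the same sum 6 were higher and 5 lower, with a median of 0.23. Syndecan 4, Sdc4 (841 against 4445), versican, Vcan (4346 against 14843), and Cspg4 (51.7 against 197) were higher. Gpc1 (26942 against 7025), Ogn (7363 against 2456), Aspn (45.7 against 6.69), Fmod (26.02 against 0.452) and Prelp (16.5 against 0.712) were lower. Of 24 matrix proteases and crosslinking genes 11 were higher and 5 lower, 8 of the 11 being inhibitors or crosslinking enzymes such as Loxl3 (404 against 2909.8), Serpine2 (3679.6 against 13858) and Plod2 (3363 against 7731). The gelatinase Mmp2 was higher (1739 against 6018), and Mmp19 (142 against 51.2), the ADAMTS proteases Adamts1 (1936 against 795), Adamts5 (3202 against 726) and Adamts12 (122 against 48.9) and the crosslinking enzyme Loxl1 (1391 against 633) were lower. Of 18 integrins 4 were higher and 4 lower (22.2% each, against 18.0% and 15.5% over all genes compared). The lower were Itga6, a laminin receptor subunit (6574 against 2836), Itga9 (175 against 14.9), Itga11 (106 against 14.2) and Itgb6 (869.7 against 232). The higher were Itga3 (751 against 1510.0) and, from values under 5 in wildtype, Itga2 (2.81 against 39.3), Itga8 (2.71 against 49.4) and Itgb7 (4.28 against 81.5).

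Most signalling lists held members with large ratios in both directions. In the Hippo list (36 genes, 9 higher and 5 lower, median 0.03), the targets Crim1 (54.3 against 942), Fosl1 (267 against 1667) and Axl (3202 against 9671) were higher, Ankrd1 was almost equal (8361 against 8415), and the DNA-binding factor Tead4 (4837 against 850.1) and its muscle cofactor Vgll2 (147 against 7.06) were lower, as were Tgfb2 (989 against 375), Gadd45a (1929 against 696) and Nt5e (15.04 against 6.85). Among 17 SRF targets 3 were higher and 7 lower. The nonmuscle actins Actb (13313 against 31817) and Actg1 (17381 against 50737) and the LIM protein Fhl2 (439 against 914) were higher and the smooth-muscle actin Acta2 was lower (98479 against 28708), so actin isoforms of the cytoskeleton and of contraction stood on opposite sides of wildtype. In the TGF-β and myostatin list (30 genes, 9 higher and 7 lower) the BMP antagonists differed in direction, with Grem1 (46.3 against 833) higher and noggin, Nog, lower (540.4 against 18.5). Fstl3, which binds activin and myostatin, was lower (1445 against 148), as was Fst (5753 against 2264).

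In the Notch list (14 genes, 5 higher and 1 lower) the receptor Notch2 (1247 against 4267), the ligand Jag1 (112 against 252) and the targets Hes1 (332 against 819.9) and Hey2 (5.12 against 109) and the glycosyltransferase Lfng (5.92 against 19.4) were higher and Heyl was lower (967 against 26.3). In the Wnt list (27 genes, 5 higher and 10 lower) the ligand Wnt5a (182 against 1011), the inhibitor Sfrp1 (41.2 against 206), the factors Lef1 (79.5 against 364) and Tcf7l2 (188 against 420.1) and the receptor Lgr5 (10.9 against 29.1) were higher, Wnt10a was lower (591 against 4.22), and the feedback gene Axin2 was lower (312 against 34.3). Of 15 insulin-like growth factor list genes 3 were higher (20.0%) and 1 lower (6.67%), against 18.0% and 15.5% over all genes compared. Igf2 lay within 2-fold (122513 against 62949.8), and the insulin receptor substrate Irs2 (40.2 against 306) and the binding protein Igfbp7 (687 against 1486) were higher. The RNA-binding proteins Igf2bp1 (157 against 10.7) and Igf2bp3 (182 against 882) went in opposite directions. In the hypoxia and apelin list (17 genes, 6 higher, none lower) Slc2a1 (676 against 1787), Adm (44.8 against 242) and Ddit4 (419 against 1385) were higher and Hif1a lay within 2-fold (2716 against 3993).

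NRF2 targets, which detoxify and restore glutathione, were higher for 10 of 15 genes and lower for none, with a median log2 ratio of 1.52. Srxn1 had 183 in wildtype and 2209 in Q133H, Nqo1 was 77.5 against 386 and Hmox1 was 1786 against 5294, whereas Prdx1 was almost equal (9409 against 9610.0). Of 26 interferon-stimulated genes 11 were higher and 1 lower. The proliferation medium contained interferon-γ for every line. Ifit3 (233 against 982), Rsad2 (69.3 against 375) and Gbp3 (531 against 2125) were higher and Iigp1 (8775 against 10009.8) and Igtp (6285 against 5223) lay within 2-fold, and Oas2 was the 1 lower gene (13.1 against 1.28). Of 18 MHC class I genes, of which 4 were higher and 0 lower at the same sum, 1 was higher (Nlrc5, the class I activator, 632 against 1415) and 1 lower (H2-Q7, 4514 against 2186). H2-K1 (22389.6 against 11588), H2-D1 (22737 against 16241) and B2m (36285 against 42485) lay within 2-fold. H2-K1, H2-D1 and H2-Q7 are close in sequence, and how reads were split between them was not stated. Of 18 cytokines and chemokines 10 were higher and 2 lower, with Csf1 (2047 against 14942), Cxcl12 (252 against 1746), Cx3cl1 (251 against 1834) and Lif (64.2 against 437) higher and Cxcl14 (223 against 0.896) and Tslp (25.04 against 10.96) lower.

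Ribosomal protein genes lay close to wildtype and respiratory chain genes were slightly but almost uniformly below it. Of 41 ribosomal protein genes 1 was higher and 1 lower, with Rpl4 (24565 against 24554) almost equal. The higher one was Rpl26 (66.3 against 7149.6), whose reads can be shared with near-identical copies, and it stood as far from wildtype in the other lines. The lower one was Rpl10 (2121 against 951). Of 36 nuclear-encoded respiratory chain genes 34 had a log2 ratio below 0 and 2 above, and none passed 2-fold. Their median log2 ratio was -0.67, or -0.42 at the same sum, and their range was -0.997 to 0.53, with Atp5b at 43415 against 27075. Among 17 ATF4 and unfolded-protein genes 3 were higher and 6 lower. The amino acid enzymes Asns (3782 against 881) and Psat1 (7817 against 1841) were lower and Ddit3 (374 against 1098) and Atf3 (69.3 against 246) were higher. Among 20 sterol and fatty acid genes 1 was higher and 4 lower, with a median of -0.03 that became 0.22 at the same sum. Dhcr7, the last enzyme of cholesterol synthesis, was lower (3731 against 563), as were the desaturases Scd1 (7507 against 2646) and Scd2 (37918 against 14560.2) and the regulator Srebf1 (3025 against 1373), and Elovl6 was higher (236 against 1107).

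**Figure D2:**
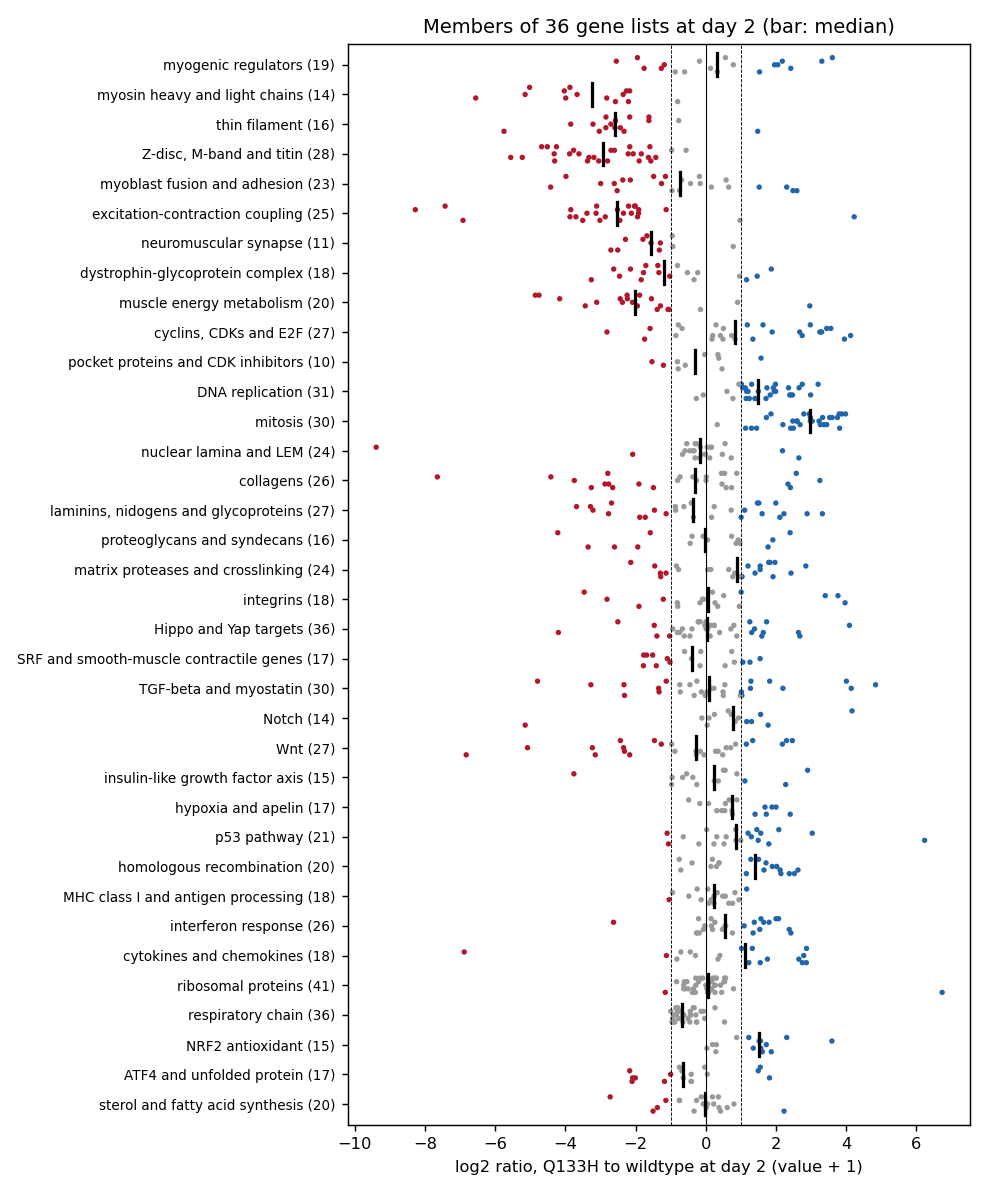
Log2 ratio of Q133H over wildtype at day 2 for every compared gene (points, coloured past 2-fold) of 36 lists (rows, number of genes in brackets) with the list median (bar) and dashed lines at 2-fold. Sarcomere and calcium-handling lists lay to the left (medians of -3.25 for myosins and -2.52 for excitation-contraction coupling) and mitosis (2.96), NRF2 targets (1.52) and replication (1.49) to the right.

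The 15 largest ratios in each direction among genes with an official symbol held few list members. On the lower side, beside Emd and Casq1, stood Ankrd2, a muscle ankyrin-repeat protein (12005 against 38.5), Mfap4, a microfibril protein (864 against 1.49), the complement inhibitor Serping1 (2182.2 against 6.44), the transcription factor Runx3 (590.1 against 2.04), the pterin enzyme Pcbd1 (504 against 0.903), the hormone Fgf21 (1472 against 6.98) and the collagen Col23a1 (1028 against 4.13). The rest of the lower 15 were Eno1b, Galnt6, Hephl1, Ifi202b, R3hdml and Fxyd6. On the higher side stood the protocadherin Pcdh9 (1.75 against 492), the heparan sulfate enzyme Hs3st1 (0.689 against 193), Perp and the pantetheinase Vnn1 (6.82 against 453). Also on the higher side were Rpl26, Zfp729b, Stxbp6, Mndal, Prl2c2, Ifi211, Cachd1, Cd300ld4, Fbxl7 and Eif2s3y.

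These genes differed in how the other lines stood beside wildtype in the same measure. Pcdh9 had a log2 ratio of 7.49 in Q133H against 1.92 in EMD-/y and 2.67 in Δ95–99. Serping1 was at -8.20 in Q133H and between -3.72 and -0.56 in the other 4 lines, Runx3 at -7.60 against -1.70 to -0.57, and Pcbd1 at -8.05 against -2.47 to -0.82. These were also far from wildtype in Q133H on day 0, at 6.01 for Pcdh9, -8.55 for Serping1, -6.12 for Runx3 and -6.29 for Pcbd1. In contrast Rpl26, Ifi211, Ifi202b, Eno1b and Eif2s3y were also far from wildtype in each of the other lines, with log2 ratios of 5.51 to 7.19 for Rpl26, Ifi211 and Eif2s3y and -8.19 to -6.69 for Ifi202b and Eno1b. Ankrd2 (-6.39 to -4.36), Mndal (3.77 to 5.37), Cachd1 (3.43 to 4.90) and Fbxl7 (2.99 to 4.46) also stood on the same side as in Q133H in each of those lines. Casq1, Fgf21 and Col23a1 were within 1.86 log2 units of wildtype on day 0.

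The same gene lists were read on the earlier days, which share no library with day 2. On day 0, before serum was reduced, 6.31% of genes were at least 2-fold higher in Q133H and 8.46% lower. On day 1 the shares were 9.49% and 14.6%, and they were thus lowest on day 0 and highest on day 2. Of the 2449 genes higher on day 2, 542 (22.1%) were already higher on day 0, which is 64.2% of the 844 higher then, and 951 (38.8%) on day 1, which is 74.1% of 1283. In all 1342 (54.8%) were higher on neither earlier day. Of the 2103 lower genes, 547 (26.01%) were lower on day 0 (48.4% of 1131) and 1396 (66.4%) on day 1 (70.6% of 1977), and 660 (31.4%) on neither.

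The muscle lists were near wildtype on day 0, with 14 of 121 genes lower, 6 higher and a median log2 ratio of -0.12. On day 1 106 of 128 were lower and the median was -3.22, farther from wildtype than the -2.28 of day 2. These medians come from separate tables. Rebuilt from 3 other tables, that of day 1 among them, the day-2 median was -2.86 (132 genes). The size of the difference between the days, and of the day-1 muscle values, therefore depended on the table. Myh3 had 9204 in wildtype and 7850.3 in Q133H on day 0, 72013 and 1996 on day 1, and 268822 and 21149 on day 2. Myog had 7606 and 5422, then 38847 and 2928, then 51649 and 21442. The cell-cycle lists took another course. Their median was -0.04 on day 0 (0 higher, 3 lower of 88), 0.78 on day 1 (27 higher, 2 lower) and 1.94 on day 2. Ccnb1 had 3819 in wildtype and 3771 in Q133H on day 0, 2006 and 3651 on day 1, and 53.7 and 953 on day 2. The interferon genes changed side, with a median of -0.96 on day 0, 0.99 on day 1 and 0.56 on day 2, and the NRF2 targets were at -0.01, 0.74 and 1.52.

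**Figure D3:**
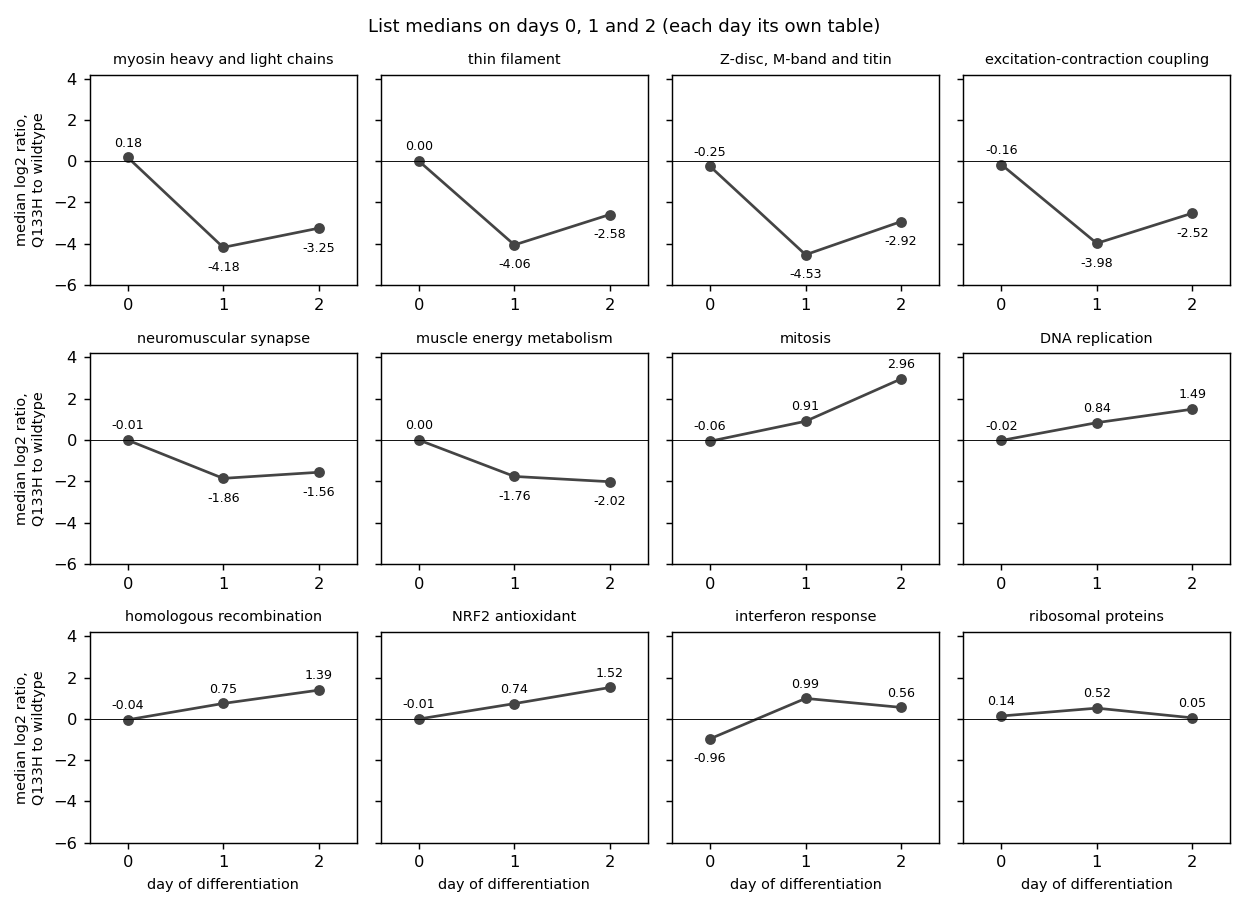
Median log2 ratio of Q133H over wildtype for 12 gene lists (1 panel each) on days 0, 1 and 2 of differentiation, each day from its own table. The 4 sarcomere and calcium-handling lists lay between -0.25 and 0.18 on day 0 and were lowest on day 1, while mitosis was at -0.06, 0.91 and 2.96.

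Tables within each line gave the course between days. From day 0 to day 1, 12.5% of genes were at least 2-fold higher on the later day and 10.3% lower in wildtype, against 5.77% and 6.37% in Q133H. Of the muscle genes 97 of 127 were higher on day 1 in wildtype (median 2.01), and 4 of 117 were higher and 55 lower in Q133H (median -0.95). From day 1 to day 2 the shares were 8.01% and 11.9% in wildtype and 6.33% and 4.44% in Q133H. Of the muscle genes 90 of 131 were then higher in wildtype (median 1.47) and 82 of 119 in Q133H (median 1.90). Q133H thus held fewer muscle transcripts on day 1 than on day 0 and more on day 2 than on day 1. Of the 88 cell-cycle genes 30 were lower on day 1 than on day 0 in wildtype and none in Q133H, and from day 1 to day 2 73 were lower in wildtype (median -2.65) and 64 in Q133H (median -1.61).

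**Figure D4:**
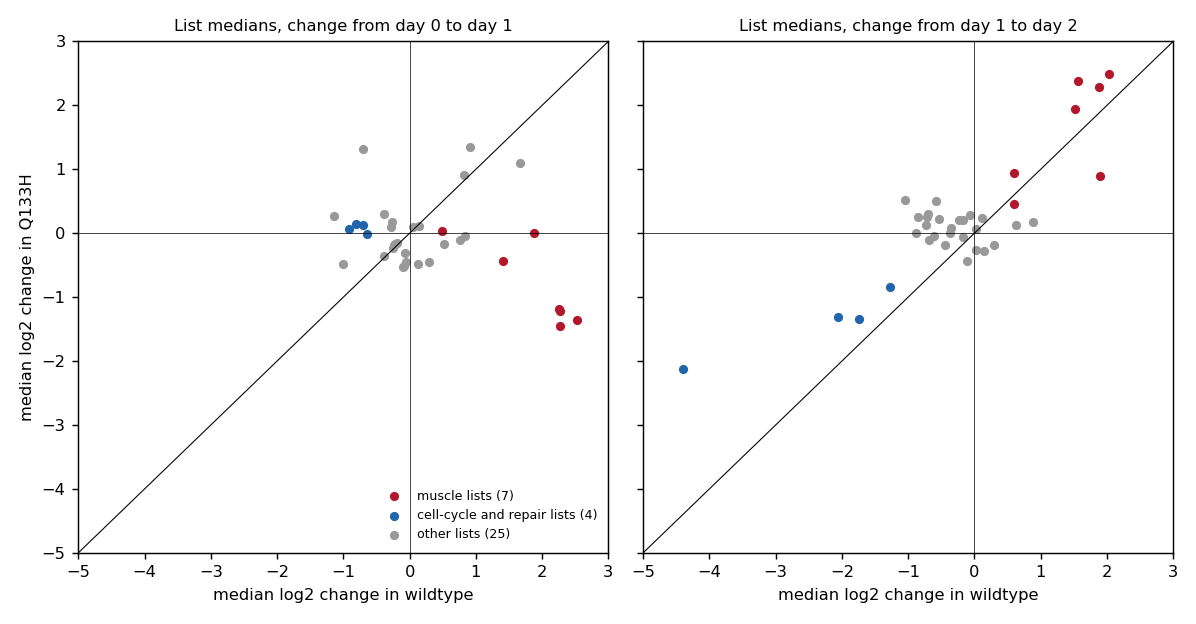
Median log2 ratio of the later to the earlier day in Q133H (vertical) against wildtype (horizontal), 1 point per gene list, for day 0 to day 1 (left) and day 1 to day 2 (right), with the diagonal of equal values. On the left 4 of the 7 muscle lists lay above 2 in wildtype and below -1 in Q133H, and on the right all 7 lay above 0 in both.

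The group values of muscle genes depended on the table. The Q133H day-2 libraries appear in a second table, beside Q133H day 1, and after removing the shift between the tables, 95% of the 10361 genes with a value of at least 100 lay between -0.05 and 0.03 log2 units of their first value. For 103 muscle genes the median was -0.12 and 95% lay between -0.70 and 0.00. Myh3 was 21149 in one and 15594 in the other, and Myh8 was 1859.9 and 1095. For 60 replication and mitosis genes the median was 0.07 and none differed by 1.5-fold. Q133H values of day 1 were not compared between tables in this way. The wildtype day-2 values, read from 5 tables, lay for 95% of genes of at least 100 within 0.0092 to 0.0161 log2 units. Those 5 tables all set wildtype beside another line on day 2, and muscle genes were not read apart. The table of wildtype day 1 and day 2 was not included, so this is not a like comparison with the Q133H values. The cause was not tested. When the day-2 ratio was rebuilt from 3 other tables, the muscle median was -2.86 in place of -2.28, with Myh3 at -5.13 in place of -3.67 and Ckm at -5.77 in place of -3.11, and the median of replication and mitosis was 2.30 in place of 2.35.

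The other lines were set beside Q133H against the same wildtype libraries at day 2. At least 2-fold higher and lower were 10.7% and 7.68% of genes in +EMD, 13.1% and 8.91% in Δ95–99, 5.87% and 4.73% in S54F and 4.77% and 2.86% in EMD-/y, against 18.0% and 15.5% in Q133H. The +EMD line shares with Q133H the null background, the transduction and a selection in puromycin, and it carries wildtype emerin. Its puromycin dose was lower than that of Q133H, and its seeding density for RNA was not stated by name. Its muscle lists had a median log2 ratio of -0.48, with 30 of 131 genes lower. The median was -1.14 in Δ95–99 (76 of 132 lower) and -2.28 in Q133H, while S54F (-0.08) and EMD-/y (0.01) were close to wildtype. The Myh3 value was 21149 in Q133H, 75016 in Δ95–99, 115724 in +EMD, 203699 in S54F and 256646 in EMD-/y. Q133H therefore held the lowest muscle medians of the 5 lines.

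The cell-cycle order was different. The medians of the 88 genes were 1.94 in Q133H, 2.29 in +EMD and 2.32 in Δ95–99, and 0.55 in both S54F and EMD-/y, so the line with wildtype emerin stood beside Δ95–99 and Q133H and farther from wildtype than S54F. Ccnb1 had 821 in +EMD and 953 in Q133H. Id3 had 658 in +EMD, 1986 in Δ95–99 and 2494 in Q133H. The interferon median was -1.66 in +EMD, -1.38 in S54F, -0.39 in EMD-/y, 0.24 in Δ95–99 and 0.56 in Q133H, and the NRF2 median was 0.37, 0.31, 0.08, 1.02 and 1.52 in that order. No spread between replicates was available for any of these orders.

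**Figure D5:**
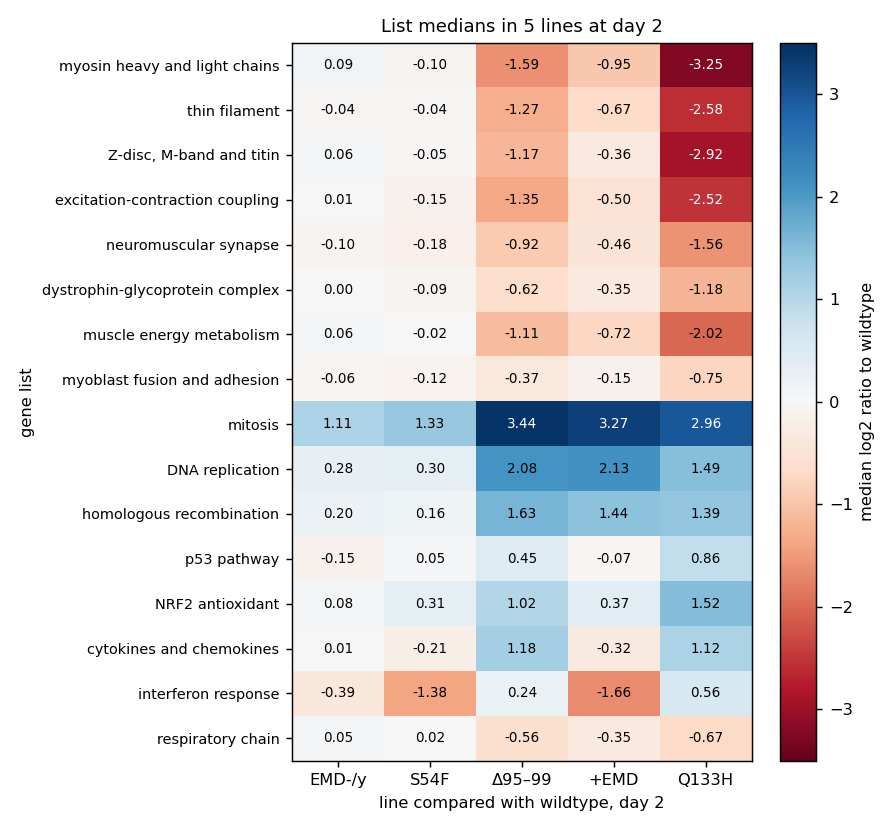
Median log2 ratio over wildtype at day 2 (colour and printed number) for 16 gene lists (rows) in EMD-/y, S54F, Δ95–99, +EMD and Q133H (columns), all against the same wildtype libraries. Of the 5 columns Q133H had the lowest median in each muscle list, whereas mitosis was high in +EMD (3.27), Δ95–99 (3.44) and Q133H (2.96).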

How the data were processed

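RNA was sequenced by BGI from 6 H2K lines on 3 days (polyA-selected, DNBseq, paired 100 base reads). The authors filtered reads with SOAPnuke and mapped them with HISAT2 to mm10, and groups were compared with DESeq2, all without a version given. Strand and the handling of multiply mapped reads were not given in the sources used here. The deposited signal values are 1 normalised expression value per gene and group for each pair of groups, and none was 0 (the smallest was 0.129). Columns with the authors' fold changes, p-values and calls for the same pairs were not used. Genes are named by the tables' IDs through RefSeq symbols (15947 of 17525 matched, 1556 others being predicted genes and 22 unmatched IDs).

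From these values log2 ratios were computed with a pseudocount of 1 for genes with a higher value of at least 10, with a call at 2-fold (Python 3.11.15, pandas 2.3.3, numpy 2.4.6, matplotlib 3.10.9), after the script was tested on simulated data. Tables were normalised separately, so ratios were taken within a table. Depth per sample and counting precision are unknown. No fold is printed where the lower value is under 3. At values under 10 the same wildtype libraries differed between tables by up to 1.50 log2 units for 95% of genes, and by at most 0.152 at 10 to 100.

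The comparison and the 41 gene lists (901 genes, 884 in the table, 817 compared) were chosen with earlier results of these data known. Named were all members of lists of at most 12 measured genes, in longer lists the 4 largest ratios in each direction past 2-fold with a higher value of at least 100 and the 3 highest means, the 15 largest ratios in each direction among official symbols, Emd and the 10 myogenic markers. The genes of the promoters, those of closing values, Myh1 and the members outside this rule that make up counts of 5 or fewer (such as Kcnj2, Myf6, Itga2 and Cd34) were chosen after values were seen. Alternatives were pseudocounts of 0 and 10, other minimums, folds of 1.5 and 4, scaling to the same sum, centring, leaving out predicted genes and, added after seeing the data, leaving out chromosome 3 and reading list ratios from 3 other tables. Promoter windows come from RefSeq on GRCm38.p6. Cells in proliferation, mature myotubes, a vector-only line and a further emerin mutant were not analysed here. Some genes that the rule names are not reported here.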

Additional observations from a re-analysis of the deposited data

How the results depend on the processing

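No paired analysis was possible because the tables hold 1 value per group, and for the same reason no replicate could be left out and no test was run. The counts of 2449 higher and 2103 lower genes became 968 and 1032 at 4-fold, and the lower count became 3383 at 1.5-fold. They stayed within 1.5 times under the pseudocounts, minimums, centring and same-sum scaling, without predicted genes (2253 and 1791), without chromosome 3 (2264 and 2047) and from 3 other tables (2369 and 2087). No list median at least 2-fold from wildtype changed sign. Some smaller medians did change sign. Among these were medians first at -0.02 for proteoglycans, 0.06 for integrins, 0.70 for adipocyte markers and 0.24 for the insulin-like growth factor list. With a pseudocount of 10 the myosin median was -2.65 and that of endothelial, blood and glial markers 0.87. With a minimum of 100 the medians were 0.80 for proteoglycans, -0.80 for integrins, 2.75 for cytokines and -0.62 for adipocyte markers, and the last was also -0.62 without chromosome 3. With no minimum, bone and cartilage markers were at 0.23 and endothelial, blood and glial markers at 0.58. From 3 other tables the thin filament was at -3.69, the Z-disc list at -3.61 and the insulin-like growth factor list at -0.36. Of the named genes 31 of 320 moved by at least 1.5-fold in that reading, mostly muscle genes, and the cause was not tested. With a pseudocount of 10, 43 of 321 moved, and with a pseudocount of 0, 12. At the same sum 13 of 82 list counts moved by more than 1.5 times. Without values per replicate, differences near 2-fold cannot be told from replicate spread.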

Other observations

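Genes on chromosome 3 stood above wildtype in Q133H as a group. Among genes with a value of at least 100, the 535 on chromosome 3 had a median log2 ratio of 0.30 on day 0, with 79.3% above 0. The medians were 0.42 on day 1 (540 genes) and 0.44 on day 2 (542 genes, 71.8% above 0). The medians of the other chromosomes lay between -0.11 and 0.08 on day 2. All 8 windows of 20 Mb along chromosome 3 had a median above 0 on day 2, from 0.32 to 0.75. At day 2 this median was -0.22 in +EMD, 0.09 in Δ95–99, -0.17 in S54F and -0.10 in EMD-/y. Other chromosomes stood apart in those lines, with medians of 0.47 for both chromosome 8 and chromosome 16 in +EMD, 0.34 for chromosome 8 in Δ95–99 and 0.27 for chromosome 15 in S54F. Named genes on chromosome 3 include Tpm3, Kirrel, Ccna2, Cenpe, Lmna, Notch2, Zmat3, Gbp3, Csf1, Gclm and Elovl6 among those described as higher or within 2-fold, and Mef2d, Myoz2, Ampd1 and Postn among those lower. The part of this shift in their values was not tested.

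Some genes differed from wildtype by a large ratio in Q133H on all 3 days and, at day 2, in the other 4 lines as well. On the Y chromosome Eif2s3y was 23.5 in wildtype and 1495 in Q133H and had log2 ratios of 5.75 to 6.11 in the other lines, whereas its neighbours on that chromosome Ddx3y (2331 against 1503), Uty (742 against 679) and Kdm5d (495 against 486) lay within 2-fold. The enolase copy Eno1b was 3675 in wildtype and 11.7 in Q133H, and Rpl26 was 66.3 and 7150. Gapdh, often taken as a reference gene, varied between days. It was 1534 in wildtype and 27603 in Q133H on day 0, 6555 and 8865 on day 1, and 2528 and 7169 on day 2, and on day 2 it was 7315 in +EMD, 5712 in Δ95–99, 10474 in S54F and 9114 in EMD-/y. Gapdh, Rpl26 and Eno1b have near-identical copies in the mouse genome, and how their reads were assigned was not tested.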
